A study of Mus musculus with 904 samples.

Results

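The respiratory chain of the mouse is built from subunits encoded in both the nuclear and the mitochondrial genome. The set described here was chosen by gene symbol alone: every gene that begins with mt-Nd, mt-Co, mt-Atp, mt-Cytb, Ndufa, Ndufb, Ndufc, Ndufs, Ndufv, Uqcr, Cox4i, Cox5, Cox6, Cox7, Cox8 or Atp5. It holds 103 of the 32285 genes counted, of which 13 are mitochondrially encoded and 90 nuclear-encoded. Assigned by the start of the symbol alone, the nuclear-encoded members comprise 39 genes of complex I, 8 of complex III, 18 of complex IV and 17 of complex V. The other 8 are Ndufaf genes, which encode assembly factors of complex I and are no subunits of the chain. Whether each of the rest encodes a subunit of the complex it was put in was not checked. Ndufb1-ps, put in complex I, is annotated as a long noncoding RNA. Among the mitochondrially encoded members, 7 belong to complex I, 1 to complex III, 3 to complex IV and 2 to complex V.

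Complexes I, III and IV pass electrons from NADH to oxygen and pump protons across the inner mitochondrial membrane. Complex V, the ATP synthase, uses that gradient to make ATP. The mitochondrially encoded subunits are transcribed inside the organelle as long polycistronic RNAs, whereas the nuclear-encoded subunits are transcribed in the nucleus, translated in the cytosol and imported. RNA of the nuclear-encoded members is thus made in the nucleus that was sorted, and RNA of the mitochondrially encoded members outside it. Fast-spiking interneurons that express parvalbumin are known for a high demand on oxidative metabolism.

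The libraries are SMART-Seq v4 polyA RNA libraries of 904 single nuclei of C57Bl/6J mice, each nucleus sorted for YFP after delivery of an AAV of the PHP.eB capsid in young adulthood (5e11 vg per mouse, 3 to 4 weeks before sorting). All nuclei carry a reporter whose title begins with DLX2.0, an enhancer construct, and goes on with 1 of 16 combinations of a fluorescent protein (SYFP2 or dTomato), the histone tag H2B and RNA elements (BORG, SIRLOIN, smOPT, U7snRNAOPT, some in 3 copies, some with a 3'box). Some titles add a P2A peptide and a FLAG tag. Every one of the 16 titles is paired with more than 1 vector ID in the treatment label, so which construct a nucleus received is uncertain. Animals are not named, and no uninjected group was analysed here. The p-values therefore rest on the scatter among sums of nuclei, which may be technical. The nuclei fall into 3 library pools by the code in their library name: S40317 with 8 construct titles, S40325 with 11 and S40327 with 15. Nuclei with at least 1000 genes and at least 10000 reads were kept: 106 of 107, 367 of 407 and 362 of 390, 835 in all, with 30023 to 719419 reads assigned to genes each (median 260274). Library index pairs were reused between pools (245 pairs occur in 2 pools or more), and no nuclei had identical counts.

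Nuclei were put into 5 classes by CPM, the counts of a gene per 1000000 reads of a nucleus, and a nucleus that met more than 1 rule was left out: Rgs9 of at least 20 with Slc17a7 under 20 (215 nuclei), Sst of at least 100 (120), Pvalb of at least 20 with Sst under 100 (94), Slc17a7 of at least 50 (136) and Aqp4 of at least 20 (35). Of the 10 markers of striatal projection neurons, 9 were detected in at least 25% of the nuclei of the Rgs9 class. The other classes showed 6 of 6 Sst interneuron markers, 6 of 6 Pvalb interneuron markers, 6 of 6 cortical glutamatergic markers and 5 of 6 astrocyte markers, each in the class of its own gene. Each list holds the gene that defines its class, so the detection of that gene was fixed in advance. The Sst and Pvalb lists also share Gad1, Gad2 and Lhx6. The Pvalb class showed 4 of 6 Sst markers, the Sst class 4 of 6 Pvalb markers and the Rgs9 class 3 of 6 Pvalb markers. Every sample is labelled as primary visual cortex, while the series text names 3 regions, the striatum and a motor area among them. Ppp1r1b, a striatal signalling gene, was detected in 93.5% of the nuclei of the Rgs9 class, so the region of a nucleus is uncertain and cannot be told apart from class or pool. It was also detected in 45.7% of the Aqp4, 33.1% of the Slc17a7, 14.2% of the Sst and 5.32% of the Pvalb class. Rgs9 had reads in 16.2% of the nuclei of the Slc17a7 class. Its rule asks for Slc17a7 under 20 CPM, so such nuclei stay in the Slc17a7 class. The pools differ in make-up: the Slc17a7 class supplied 56 of 106 nuclei in S40317, 47 of 367 in S40325 and 33 of 362 in S40327, and no nucleus of the Rgs9 class came from S40317. In sums over whole pools, fewer nuclei of a class and less RNA per nucleus cannot be told apart.

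Over all kept nuclei the nuclear-encoded members took 1.22% of the reads and the mitochondrially encoded members 0.278%. Pool S40317, with 12.7% of the kept nuclei, held 81.2% of the mitochondrially encoded reads. A typical nuclear-encoded member was detected in 43.8% of nuclei (median over 90 genes), 30 of the 90 were detected in at least 50% of nuclei, and 7 in at most 5%. The 10 nuclear-encoded members with the highest mean CPM per kilobase of exon were led by Cox8a (410), Cox6a1 (383) and Cox6b1 (262), all of complex IV. Uqcr10 of complex III followed (249.8), then Atp5b, the catalytic beta subunit of the ATP synthase (199.8), Ndufa1 of complex I (190.5), Atp5g3, a gene for the proton-carrying c subunit (189), Ndufa4 (181), Ndufc2 (179) and Uqcr11 (170.4). In CPM not divided by length, Atp5b had the highest mean of all nuclear-encoded members at 847.

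Several subunits of complex IV exist as alternative isoforms, and here 1 isoform of each pair dominated. On the scale of mean CPM per kilobase over kept nuclei, Cox4i1 stood at 161 against 1.30 for Cox4i2, and Cox6b1 at 262 against 1.70 for the testis isoform Cox6b2. Cox7a2 stood at 165 against 3.32 for the heart and muscle isoform Cox7a1, Cox7b at 152 against 2.34 for Cox7b2, and Cox8a at 410 against 0.534 for Cox8b. Cox8c had no reads in any kept nucleus. Cox7a2l, which takes part in supercomplex assembly, stood at 25.4, and Ndufa4 at 181 against 1.73 for Ndufa4l2. Of the 3 genes for the c subunit of the ATP synthase, which encode the same mature protein, Atp5g3 stood at 189, Atp5g1 at 28.4 and Atp5g2 at 7.67. The exception was Cox6a2, the heart and muscle isoform of subunit VIa, at 38.6 against 383 for Cox6a1. Its reads lay in few nuclei (10.9% of all).

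The 13 mitochondrially encoded genes were not counted equally. Mean CPM over kept nuclei was 830 for mt-Cytb (cytochrome b), 685 for mt-Nd1, 258 for mt-Co1, 216 for mt-Nd4, 203 for mt-Nd2, 152 for mt-Nd5 and 35.8 for mt-Nd6. It was 5.20 for mt-Co3, 4.16 for mt-Nd3, 2.80 for mt-Co2, 2.44 for mt-Atp6, 0.404 for mt-Atp8 and 0.110 for mt-Nd4l. Aligned with blastn to the GENCODE M21 transcripts, 5 of the 13 genes (mt-Atp6, mt-Co2, mt-Co3, mt-Nd3 and mt-Nd4l) have an annotated nuclear copy that is at least 99% identical over at least 90% of their length. Those 5 genes had between 0.110 and 5.20 CPM, and the other 8 between 0.404 and 830 CPM, with mt-Atp8 the lowest. The 5 copies lie side by side on chromosome 1 (mm10 coordinates of GENCODE M21), and none of the best-matching copies of the 13 genes is a row of the deposited table. How reads that match both places were counted is not given in the sources used here, so the counts of these 5 genes are uncertain and the part of the copies in the low values was not tested. The doubt reaches other genes in part: mt-Nd4 has a copy that is 100% identical over 876 bases (63.6% of its length), and mt-Co1 one that is 99.8% identical over 483 bases (31.3%). It also reaches mt-Atp8 (bases 7766 to 7969 of chromosome M), which lies between mt-Co2 and mt-Atp6 and overlaps the latter. Only annotated transcripts were searched, so a copy of mt-Atp8 between those of its neighbours would have been missed. Its low value is thus no example of a gene without a copy. The summed mitochondrial level below rests mainly on mt-Cytb, mt-Nd1, mt-Co1, mt-Nd4 and mt-Nd2. The following stretches of 60 bases, each beginning at base 301 or 302 of the mitochondrial gene, show an identical copy and a diverged one. Capitals mark bases that differ within a pair, 0 in the first pair and 7 in the second.
mt-Atp6 (chromosome M, gene 7927 to 8607, plus strand): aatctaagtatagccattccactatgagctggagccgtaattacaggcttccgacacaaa
Gm10925 (chromosome 1, gene 24613974 to 24614651, minus strand): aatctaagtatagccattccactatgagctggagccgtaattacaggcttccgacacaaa
mt-Cytb (chromosome M, gene 14145 to 15288, plus strand): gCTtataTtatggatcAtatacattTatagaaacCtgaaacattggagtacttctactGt
Gm11410 (chromosome 4, gene 80003989 to 80005131, plus strand): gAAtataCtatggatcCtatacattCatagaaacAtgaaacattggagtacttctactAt

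In pool S40317 the summed mitochondrially encoded level split the nuclei into separate clusters. Of its 106 kept nuclei, 48 had under 1000 CPM, 58 had over 5000 CPM and 0 lay between (26 had no such read). In S40325 and S40327, 330 of 367 and 314 of 362 nuclei had under 1000 CPM, 31 and 40 lay between 1000 and 5000 CPM, and 6 and 8 lay above. The median nucleus had 12653 CPM in S40317, 9.19 in S40325 and 5.59 in S40327. The summed nuclear-encoded level had medians of 16430, 9861 and 9181 CPM in the same order, a far smaller spread. Within S40317 both clusters were present in the Slc17a7 class (28 nuclei each) and in the Pvalb class (7 high, 9 low), and all 5 nuclei of the Aqp4 class were high. By the vector ID of the treatment label, all 24 nuclei of AiP14798 and all 8 of AiP14793 exceeded 5000 CPM, as did 0 of 16 nuclei of AiP14795 and 0 of 16 of AiP14796. The count was 12 of 15 for AiP14794 and 14 of 27 for AiP14797.

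**Figure D1:**
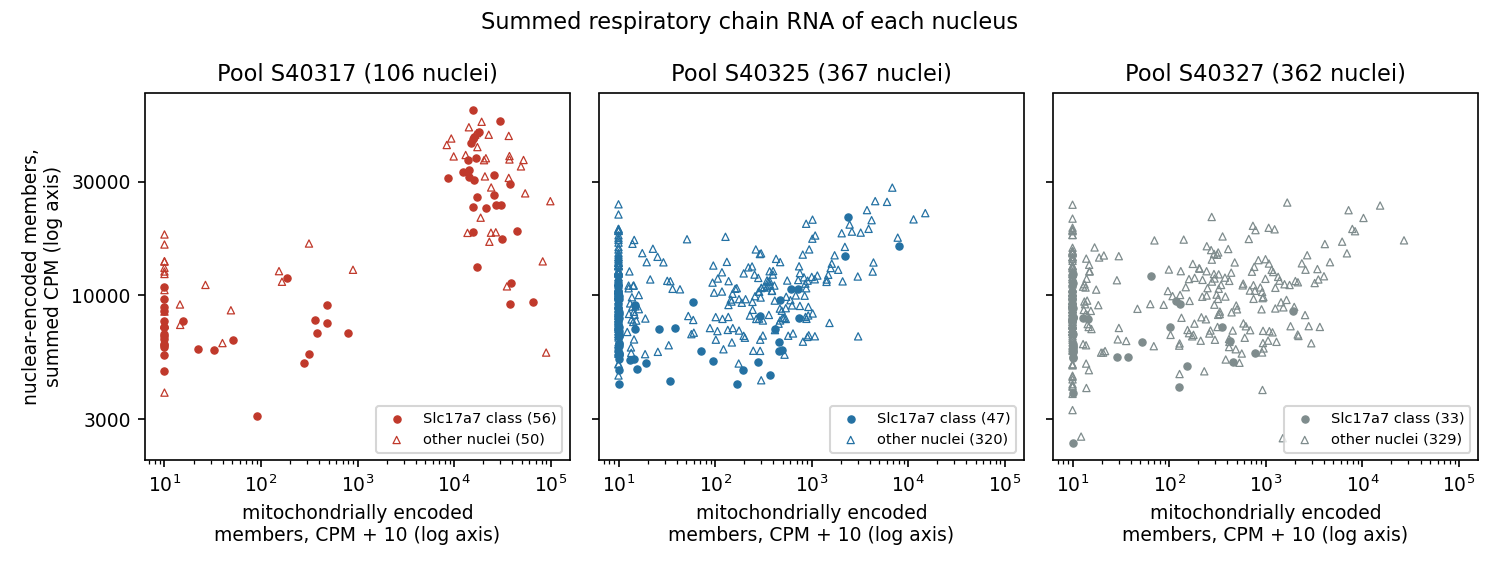
Summed CPM of the 90 nuclear-encoded members (vertical, log axis) against summed CPM of the 13 mitochondrially encoded members plus 10 (horizontal, log axis), 1 point per kept nucleus, 1 panel per library pool, with nuclei of the Slc17a7 class filled. Pool S40317 forms separate clusters, with 48 nuclei under 1000 CPM and 58 over 5000 CPM, while most nuclei of the other pools lie under 1000 CPM.

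Summed per construct title, the titles of S40317 also stood apart, although the split of nuclei ran within 4 of them and followed the vector ID more closely than the title. Nuclei over 5000 CPM were 8 of 16 in 3xBORG-SYFP2-H2B-BC, 12 of 23 in BORG-SYFP2-H2B-BC, 16 of 24 in SYFP2-H2B-3xBORG-BC and 3 of 8 in SYFP2-H2B-BORG-BC. In S40317 the summed mitochondrially encoded level was 42.3 CPM for SYFP2-H2B-3xsmOPT-BC and 107.6 CPM for 3xsmOPT-SYFP2-H2B-BC, and 9634 to 29293 CPM for the other 6 titles. The nuclear-encoded level was lowest in the same pair of titles, 8594 and 10254 CPM, and lay between 18458 and 33578 CPM in the other 6. The 11 titles of S40325 ranged from 59.1 to 1062 CPM (median 402.8) for the mitochondrial level and from 7035 to 12180 CPM (median 11120) for the nuclear-encoded one. The 15 titles of S40327 ranged from 164 to 1427 CPM (median 432) and from 8121 to 11482 CPM (median 10104). Other RNA differed with them: summed cytosolic ribosomal protein genes had medians of 7241, 3164 and 2860 CPM, and summed nuclear long noncoding RNAs, such as Malat1, medians of 101336, 214037 and 203880 CPM. The median number of genes per nucleus, taken over titles, was 3940, 2757 and 2731. The part of depth and RNA make-up in the difference between pools was not tested.

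**Figure D2:**
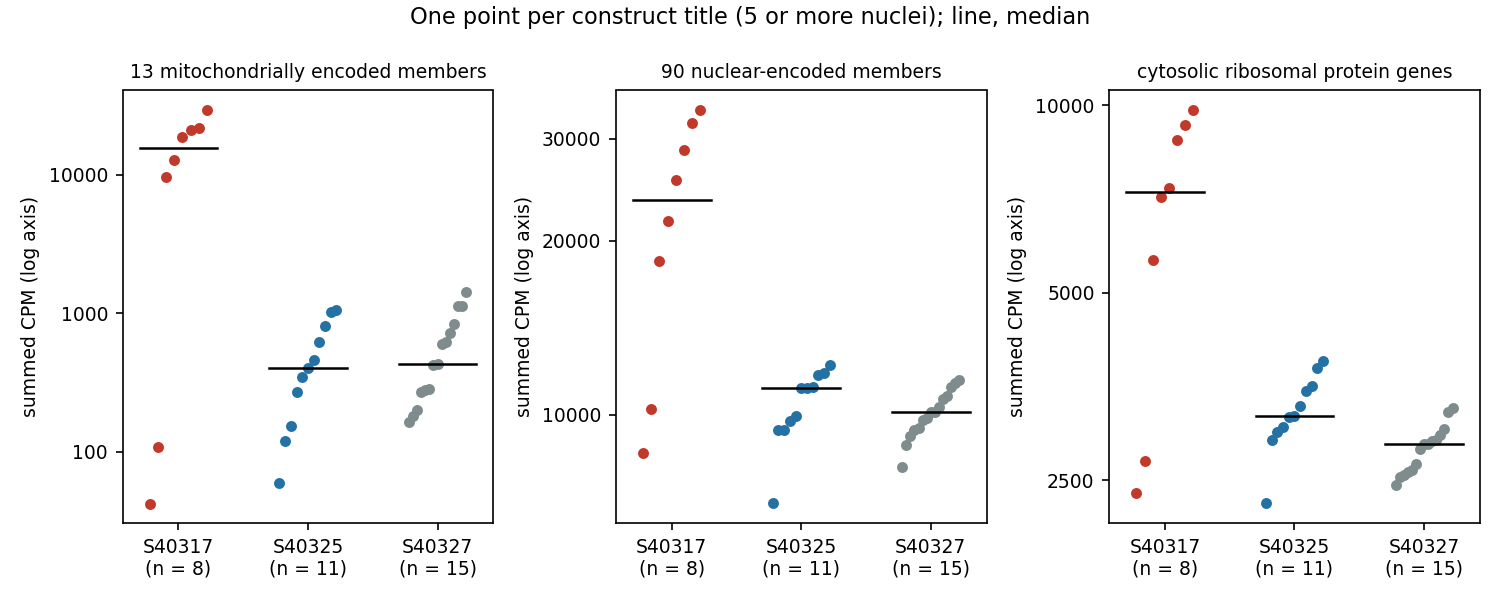
Summed CPM (log axes) of the mitochondrially encoded members, the nuclear-encoded members and the cytosolic ribosomal protein genes, 1 point per construct title with 5 or more nuclei, by library pool; the line is the median. In S40317, 2 titles lie near the other pools and 6 above them in every panel.

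Pools S40317 and S40327 share 8 construct titles, and their levels were compared within titles. The comparison does not isolate the pool: each title holds several vector IDs, and the classes of nuclei differ between pools, so these cannot be told apart in it. No member passed the test (edgeR's quasi-likelihood test with Benjamini-Hochberg adjustment over 11062 genes, of which 0.0271% were called in either direction). The estimates of the mitochondrially encoded members were large and spread widely: 7 of 7 tested lay above 0, with a median log2 fold change of 4.46, against -0.11 for all genes. mt-Nd1 had 1.99, 4808 and 9597 CPM as lowest, median and highest title in S40317 and 3.03, 92.7 and 203 CPM in S40327 (log2 fold change 5.0, SE 1.67, adjusted p = 0.28). It was higher in 6 of 8 titles, and the groups overlapped because the pair of smOPT titles stayed low. mt-Nd2 (4.37, SE 1.71, adjusted p = 0.36), mt-Nd4 (4.61, SE 1.87, adjusted p = 0.39), mt-Nd6 (5.38, SE 2.22, adjusted p = 0.40), mt-Co1 (2.28, SE 1.03, adjusted p = 0.44), mt-Cytb (3.75, SE 1.80, adjusted p = 0.47) and mt-Nd5 (4.46, SE 2.21, adjusted p = 0.48) likewise were higher in 6 of 8 titles each.

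The nuclear-encoded members had smaller and steadier estimates in the same comparison. Of 83 tested, 72 lay above 0, with a median log2 fold change of 1.01; 46% of all genes tested lay above 0. An unadjusted p under 0.05 in the higher direction was found for 40 of the 83, against 5.72% of all genes. Ndufa3, an accessory subunit of complex I, had 193, 398 and 789 CPM (lowest, median, highest title) in S40317 and 45.2, 102 and 156 CPM in S40327, a log2 fold change of 1.70 (SE 0.30, adjusted p = 0.055). Its groups did not overlap, and it was higher in 8 of 8 titles. Atp5e, the epsilon subunit of the ATP synthase, had 105, 171 and 323 CPM against 18.5, 39.3 and 58.3 CPM (2.14, SE 0.41, adjusted p = 0.070), again without overlap. Cox5b, a nuclear-encoded core-associated subunit of complex IV, had 161, 495 and 717 CPM against 72.04, 99.02 and 137 CPM (1.85, SE 0.36, adjusted p = 0.072), without overlap. These 3 were the only members whose groups did not overlap, a pattern seen for 0.542% of all genes in that direction. The 3 members with the smallest p in the lower direction were Atp5l (-1.56, SE 0.69, adjusted p = 0.43), Uqcrc1, a core subunit of complex III (-0.80, SE 0.35, adjusted p = 0.43), and Atp5s (-1.44, SE 0.90, adjusted p = 0.59).

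By complex, 37 of 38 members of complex I lay above 0 (median log2 fold change 1.204), as did 7 of 8 of complex III (1.28), 11 of 12 of complex IV (1.12) and 14 of 17 of complex V (0.63), but 3 of 8 assembly factors (-0.06). The cytosolic ribosomal protein genes, which take no part in respiration, had a median of 1.11 with 76 of 83 above 0, and 0 were called. The call depends on the test. DESeq2 called 32 nuclear-encoded and 5 mitochondrially encoded members and 10.8% of all genes. The edgeR fit without the construct block called 20 and 4 members and 1.76% of all genes, and the fit without a filter on low counts 7 and 1 and 0.759%. All of these members were higher in S40317. Without SYFP2-H2B-3xsmOPT-BC 6 nuclear-encoded members were called, and without 3xsmOPT-SYFP2-H2B-BC 2. The share of all genes called in those fits is not given here, so these counts are not read as particular to the members.

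**Figure D3:**
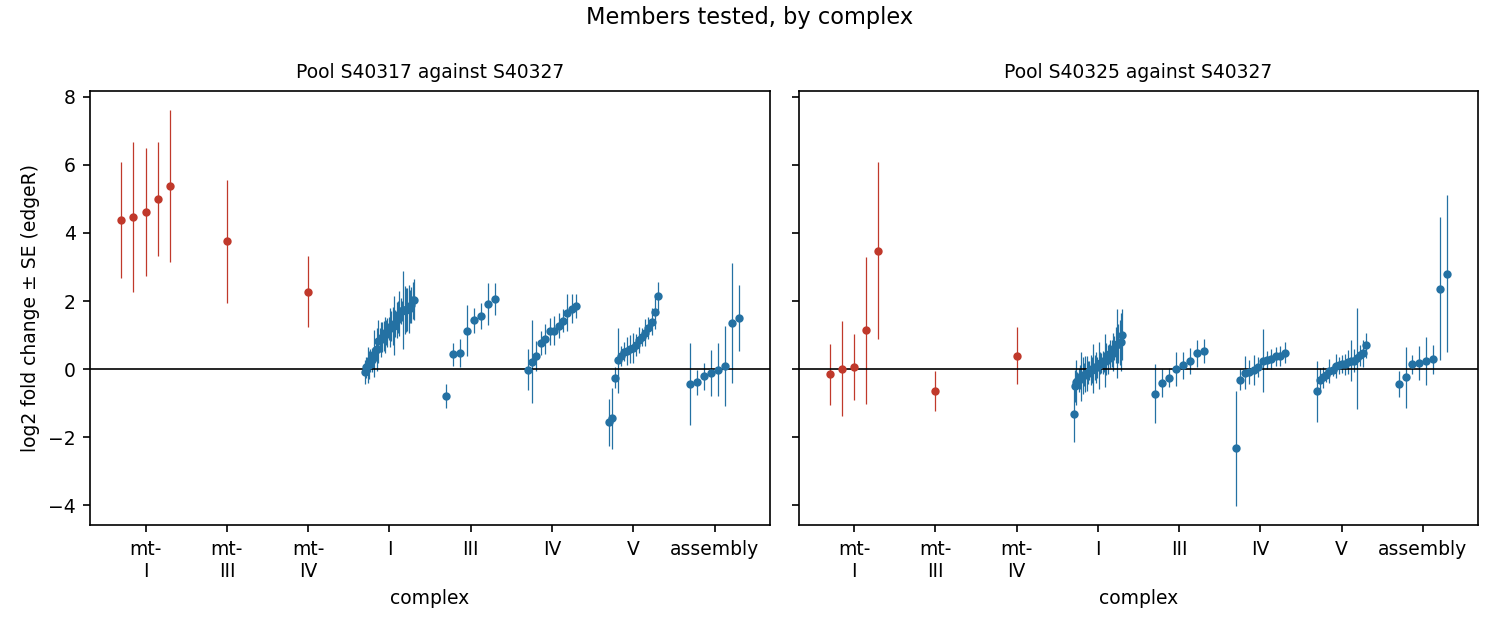
Log2 fold change with its SE (edgeR) of each member tested, ordered within its complex, for pool S40317 against S40327 (left, 8 titles a pool) and S40325 against S40327 (right, 10 titles a pool). In the left panel 7 of 7 mitochondrially encoded members (red) and 72 of 83 nuclear-encoded members (blue) lie above 0, and in the right panel 5 of 7 and 52 of 83.

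The other pool comparisons called no member. Between S40317 and S40325 (4 shared titles, 10206 genes tested, 0% called in either direction) 62 of 83 nuclear-encoded members lay above 0 with a median of 0.53, against 51% of all genes. Of the mitochondrially encoded members 4 of 7 lay above 0, with a median of 0.03. No member had an unadjusted p under 0.05, which 1.05% of all genes had in the higher direction, and DESeq2 called 1 member and 1.89% of all genes. The groups did not overlap for Ndufa9 (higher, as in 2.48% of all genes) and Atp5l (lower, as in 1.61%). The mitochondrially encoded estimates ran from mt-Nd6 (3.41, SE 3.73) and mt-Nd1 (3.26, SE 2.20) over mt-Co1 (0.75, SE 1.68), mt-Nd2 (0.03, SE 5.68), mt-Nd5 (-0.29, SE 6.30) and mt-Nd4 (-0.34, SE 2.93) to mt-Cytb (-0.48, SE 6.14), all with an adjusted p of 1.0. Both smOPT titles are among the 4. The smallest p-values belonged to Uqcrc2 (1.35, SE 0.73), Cox6a2 (8.20, SE 4.45, with a median of 0 CPM in S40325) and Ndufa6 (1.84, SE 1.05) in the higher direction, and to Atp5l (-2.46, SE 1.35), Ndufaf6 (-1.77, SE 1.51) and Atp5b (-0.58, SE 0.63) in the lower. Between S40325 and S40327 (10 shared titles, 11125 genes tested, 0% called in either direction) 52 of 83 nuclear-encoded members lay above 0 with a median of 0.14, against 43.5% of all genes. None had an unadjusted p under 0.05, which 0.485% of all genes had in the higher direction. DESeq2 also called no member, and 0.764% of all genes. mt-Nd5 had an estimate of 3.47 (SE 2.60), mt-Nd6 1.14 (SE 2.14), mt-Co1 0.40 (SE 0.84), mt-Nd1 0.07 (SE 0.97), mt-Nd2 0.02 (SE 1.40), mt-Nd4 -0.15 (SE 0.90) and mt-Cytb -0.65 (SE 0.59). The nuclear-encoded members nearest to a call were Atp5mpl (0.70, SE 0.37), Ndufb10 (0.62, SE 0.34) and Cox6b1 (0.48, SE 0.30) above 0, and Ndufv1 (-1.30, SE 0.82), Cox6a2 (-2.32, SE 1.69) and Ndufb8 (-0.34, SE 0.25) below.

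Since pool S40317 is rich in nuclei of the Slc17a7 class, it was compared with S40327 within that class, over 4 shared titles of 3 to 15 nuclei each. 2 of 3 mitochondrially encoded members tested passed, mt-Nd4 and mt-Co1, both higher in S40317 (edgeR, 7039 genes tested, 0.0426% called in either direction and 0.0284% as higher). mt-Nd4, a proton-pumping subunit of complex I, had 0, 341, 1061 and 1948 CPM in the 4 titles of S40317 and 0, 3.73, 14.2 and 0 CPM in the same titles of S40327 (3xsmOPT-SYFP2-H2B-BC, BORG-SYFP2-H2B-BC, SYFP2-H2B-3xBORG-BC and SYFP2-H2B-3xU7snRNAOPT-BC). It was higher in 3 of 4 titles, with 0 reads on both sides in the smOPT title. The log2 fold change was 7.60 (SE 1.24, adjusted p = 0.0049), and over all reads of the 4 titles the level was 1046 against 5.27 CPM, a ratio of 199. The S40327 side holds 15 reads, in 2 of 4 sums, so the size of this ratio is uncertain. mt-Co1, the catalytic subunit of complex IV, had 0, 303, 914 and 1337 CPM against 0, 0, 36.2 and 25.9 CPM (6.05, SE 1.18, adjusted p = 0.045). mt-Nd6 had an estimate of 7.83 (SE 4.00, adjusted p = 1.0). These calls rest on few titles: without SYFP2-H2B-3xU7snRNAOPT-BC neither passed, without BORG-SYFP2-H2B-BC mt-Co1 did not, and without SYFP2-H2B-3xBORG-BC mt-Co1 did not and mt-Nd4 was not tested. Neither passed without the construct block, and mt-Co1 did not under RLE scaling. Without 3xsmOPT-SYFP2-H2B-BC 6 mitochondrially encoded members passed, in a fit whose share over all genes is not given here.

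No nuclear-encoded member passed in that class (78 tested). DESeq2 called 4 of them and 2.2% of all genes. An unadjusted p under 0.05 in the higher direction was found for 11 of the 78, against 2.71% of all genes. Above 0 lay 68, with a median of 1.77, against 65.7% and a median of 0.74 for all genes. All 8 members of complex III, which passes electrons from ubiquinol to cytochrome c, lay above 0 with a median of 2.92, and 36 of 37 of complex I with a median of 2.02. Complex IV had 11 of 11 above 0 (median 1.67), complex V 11 of 16 (1.01) and the assembly factors 2 of 6 (-0.18). Uqcrb, the ubiquinone-binding subunit, had 163, 172, 438 and 602 CPM in S40317 and 46.8, 0, 52.6 and 83.4 CPM in S40327 (3.42, SE 1.26, adjusted p = 1.0), without overlap and including the title in which mt-Nd4 and mt-Co1 had no reads. Atp5h, a stalk subunit of the ATP synthase (5.15, SE 1.60), and Ndufa2 (3.79, SE 1.40) completed the 3 smallest p-values; 9 of the 78 did not overlap, against 3.65% of all genes. In the lower direction Atp5l (-1.68, SE 3.68), Atp5mpl (-0.51, SE 1.54) and Ndufaf1 (-0.87, SE 3.15) had the smallest p-values. Ribosomal protein genes had a median of 2.07 and glycolysis genes one of 1.37.

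Whether the nuclear-encoded members follow the mitochondrially encoded ones from nucleus to nucleus was described by the correlation of the summed levels, log2(CPM + 10), within each class and pool. Nuclei of a pool share handling and depth, so the values are descriptions. In the Slc17a7 class of S40317, 56 nuclei gave Pearson's r of 0.79 and Spearman's rho of 0.67, but these nuclei form clusters: within the 28 nuclei under 1000 CPM r was -0.02, and within the 28 above it r was -0.59. Leaving mitochondrially encoded reads out of the totals gave -0.58 in the latter. In S40325 r was -0.12 in the Pvalb class (40 nuclei), 0.08 in the Sst class (47), 0.29 in the Rgs9 class (141) and 0.46 in the Slc17a7 class (47, rho 0.23). In S40327 it was 0.23 in the Pvalb class (38), 0.30 in the Sst class (66), 0.07 in the Rgs9 class (74), 0.04 in the Slc17a7 class (33) and 0.38 in the Aqp4 class (25). The Slc17a7 class thus gave 0.46 in one pool and 0.04 in the other.

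The nuclear-encoded members were not alone in this. In the Slc17a7 class of S40317 the mitochondrial level correlated with ribosomal protein genes at 0.85, with glycolysis genes at 0.78, with the number of genes detected at 0.88 and with nuclear long noncoding RNAs at -0.83. Gene by gene, 79 of the 81 nuclear-encoded members detected in at least 25% of those nuclei had a rho above 0 against the mitochondrial level (median 0.56), next to 83 of 83 ribosomal protein genes (median 0.56) and 7302 of all 8115 genes so detected (median 0.32). Ndufb4 (0.74), Ndufa11 (0.73) and Uqcrh (0.72) had the highest values among members, and the assembly factors Ndufaf7 (-0.24) and Ndufaf4 (-0.03) the lowest. In the Rgs9 class of S40325, 51 of 68 members (median 0.07) lay above 0, next to 23 of 31 ribosomal protein genes and 56.8% of all genes. In that of S40327 it was 32 of 62 (median 0.00), next to 19 of 28 and 44.3%. The Slc17a7 class of S40325 had 53 of 77 members above 0, next to 40 of 55 ribosomal protein genes and 47.7% of all genes. For the Sst class of S40327 the values were 49 of 74, 34 of 49 and 57.9%. Over construct titles, the 8 of S40317 gave r of 0.96 (rho 0.95), with the pair of smOPT titles far below the rest. Its 6 titles above 5000 CPM, a cut on the mitochondrial level itself, gave 0.84 (rho 0.89). The 11 titles of S40325 gave 0.67 (rho 0.52) and the 15 of S40327 0.06 (rho -0.025), again as descriptions. Between the mitochondrial level and ribosomal protein genes r was 0.98, 0.80 and 0.03 over all titles of S40317, S40325 and S40327.

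In S40317 against S40327 over whole pools, the estimates of the nuclear-encoded members ran with the length of their coding sequence. Within the Slc17a7 class this was weaker, as given below. The 48 members with a longest coding sequence under 500 bases had a median log2 fold change of 1.32, with 46 above 0. The 22 members of 500 to 1000 bases had a median of 0.58 (17 above 0) and the 12 members of 1000 bases or more one of 0.12 (8 above 0). Spearman's rho between length and log2 fold change was -0.60 over the 82 members with a coding sequence and -0.15 over all 10471 such genes, in which the medians of the same length ranges were 0.59, 0.07 and -0.20. The long members near or below 0 include Atp5b (-0.25) and Uqcrc1 (-0.80). The short Atp5l (-1.56) is an exception in the other direction. Within the Slc17a7 class (4 shared titles) rho was -0.24 over 77 members and -0.18 over all 6848 such genes. The trend of the members thus lay close to that of all genes there. Medians of the members in that class were 2.01, 1.34 and 1.13, from the shortest to the longest range. Genes are not independent replicates, and the part of transcript length in the pool difference was not tested.

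**Figure D4:**
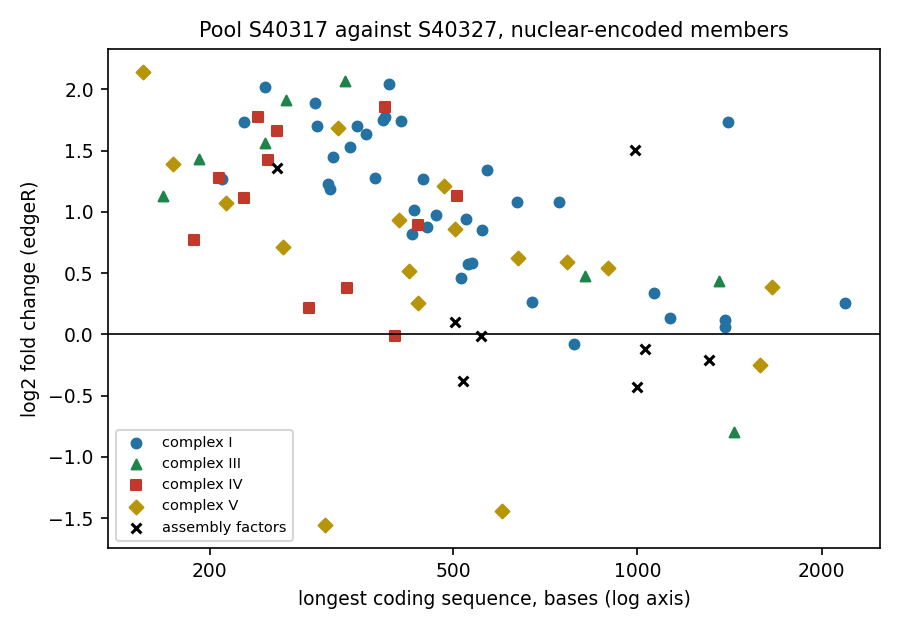
Log2 fold change (edgeR) of the nuclear-encoded members in pool S40317 against S40327 by the length of their longest coding sequence (log axis), 1 point per gene, marked by complex. The 48 members under 500 bases have a median of 1.32 and the 12 of 1000 bases or more a median of 0.12.

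Between classes, the member with the smallest p was Cox6a2, which encodes the heart and muscle isoform of complex IV subunit VIa and was known as a gene of Pvalb interneurons when the lists were made. In the Pvalb class it had 51.6, 127 and 473 CPM (lowest, median and highest of 11 sums per construct title and pool), and in the Slc17a7 class of the same titles it had no reads in 10 of 11 sums and 5.82 CPM in the other. The groups did not overlap, a pattern seen for 0.249% of all genes in that direction, and Cox6a2 was higher in 11 of 11 pairs (edgeR, adjusted p = 2.6e-05). Of the 7236 genes tested, 2.74% were called in either direction and 1.13% as higher. Over all reads of these sums the level was 130 against 1.68 CPM, a ratio of 77.3. The Slc17a7 side holds 30 reads, all in 1 of 11 sums, so the size of this ratio is uncertain. The fitted log2 fold change of 9.84 (SE 1.36) depends on the prior count given to sums at 0. It passed in all 20 alternatives, with an adjusted p of at most 0.0062, among them the fit without pool S40317 and each fit without 1 title.

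Nucleus by nucleus, Cox6a2 was detected in 53 of 94 nuclei of the Pvalb class (56.4%, exact 95% interval 45.8 to 66.6), in 5 of 120 of the Sst class (4.17%, 1.37 to 9.46), 6 of 215 of the Rgs9 class (2.79%, 1.03 to 5.98), 1 of 136 of the Slc17a7 class (0.735%, 0.0186 to 4.03) and 0 of 35 of the Aqp4 class. A count of 0 there allows a share of nuclei with reads of up to 8.57% by 3 counts of the total, or 10.0% by the exact interval used for the other classes. These intervals cover counting error only. Median depth was 251101 reads per nucleus in the Pvalb class and 229401 in the Slc17a7 class. Nuclei of the Pvalb class had Cox6a2 reads in every pool: 14 of 16 in S40317, 16 of 40 in S40325 and 23 of 38 in S40327. Outside the classes 21 of 154 nuclei had them. Cox6a1, the isoform of most tissues, was detected in 83 of 94 nuclei of the Pvalb class, 95 of 120 of the Sst class, 142 of 215 of the Rgs9 class and 106 of 136 of the Slc17a7 class. Summed per construct title over pools S40325 and S40327, its level was 289 CPM ± 107 (SD, n = 10 titles) in the Pvalb class, 276 ± 228 (n = 14) in the Sst class, 237 ± 122 (n = 14) in the Rgs9 class, 183 ± 110 (n = 11) in the Slc17a7 class and 272 ± 213 (n = 7) in the Aqp4 class, which overlap throughout. Cox6a2 in the same sums had 112 CPM ± 74.9 in the Pvalb class (range 0 to 288, with 0 in U7snRNAOPT-SYFP2-H2B-BC, which reaches 3 nuclei only over both pools), 6.12 ± 10.1 in the Sst class and 4.24 ± 8.49 in the Rgs9 class. It had 0.529 ± 1.75 in the Slc17a7 class and 0 in all 7 titles of the Aqp4 class.

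The 3' part of the coding sequence of each isoform is shown because Cox6a2, unlike Cox6a1, was called in the Pvalb class against the Slc17a7 class. Both come from the GENCODE M21 transcripts. Cox6a1 lies on chromosome 5 (115345642 to 115348981, minus strand) and Cox6a2 on chromosome 7 (128205435 to 128206387, minus strand), in mm10 coordinates. In a global alignment of the whole coding sequences, 191 of 287 aligned bases were identical (66.6%). Its last 240 columns are printed, coding bases 100 to 336 of Cox6a1 and 64 to 291 of Cox6a2, in which 148 of 225 aligned bases were identical (65.8%). Capitals mark bases that differ from the other gene or have no partner.
Cox6a1: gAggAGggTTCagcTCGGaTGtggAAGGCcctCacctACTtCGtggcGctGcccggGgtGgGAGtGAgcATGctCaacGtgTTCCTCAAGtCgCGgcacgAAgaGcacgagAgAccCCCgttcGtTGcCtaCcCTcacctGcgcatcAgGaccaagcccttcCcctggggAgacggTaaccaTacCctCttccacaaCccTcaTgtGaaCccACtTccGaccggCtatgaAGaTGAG
Cox6a2: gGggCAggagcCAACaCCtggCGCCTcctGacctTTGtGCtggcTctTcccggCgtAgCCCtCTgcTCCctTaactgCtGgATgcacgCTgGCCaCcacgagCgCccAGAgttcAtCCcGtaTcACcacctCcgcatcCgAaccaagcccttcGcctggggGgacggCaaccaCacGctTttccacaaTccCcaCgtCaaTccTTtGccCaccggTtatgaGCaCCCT

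Uqcrc1, a core subunit of complex III, was the other nuclear-encoded member that passed in the Pvalb class against the Slc17a7 class; DESeq2 called 5 there and 14.2% of all genes. It had 169, 370 and 991 CPM (lowest, median, highest sum) against 5.68, 107 and 521 CPM and was higher in 10 of 11 pairs (log2 fold change 2.06, SE 0.56, adjusted p = 0.042). This call was lost in 13 of 20 alternatives (adjusted p from 0.00027 to 0.14), among them the fit without pool S40317 (0.086) and 9 of the 11 fits that leave out a title. Atp5a1, the alpha subunit of the ATP synthase, came next with 313, 705 and 1231 CPM against 109, 186 and 737 CPM (1.45, SE 0.42, adjusted p = 0.058). In all, 67 of 81 nuclear-encoded members lay above 0, with a median of 0.64 against -0.11 for all genes (46.5% above 0), and 7 had an unadjusted p under 0.05 in that direction, against 4.45% of all genes. By complex the medians were 0.63 (I), 0.76 (III), 0.57 (IV) and 0.71 (V). In the lower direction Ndufa7 (-1.52, SE 1.28), Atp5s (-1.11, SE 1.85) and Ndufs6 (-0.97, SE 1.71) had the smallest p-values, all far from the threshold (adjusted p of 0.86 or more). Both mitochondrially encoded members tested lay below 0: mt-Co1 had an estimate of -1.67 (SE 1.31, adjusted p = 0.83) and mt-Nd4 one of -0.67 (SE 0.99, adjusted p = 0.96). Their direction was not stable, since the median of the mitochondrially encoded members tested ran from -1.79 to 0.47 over the alternatives.

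Uqcrc1 also belongs to the 7 of 71 members with a promoter in RefSeq's table (GRCm38.p6, 250 bases before to 50 after the start) that hold the palindrome bound by the transcription factor NRF1, a regulator of respiratory genes, which reads the same on both strands. Of all 27025 genes listed there, 1.07% hold it. CCGGAAG, a core bound by ETS factors such as GABPA, searched on both strands, occurs in 16 of the 71 and in 9.93% of all genes. Each palindrome is printed within 30 bases, with its letters in capitals and the distance of its first base from the start site.
Atp5g2 (chromosome 15, 102671070 to 102671099, minus strand, 42 bases before): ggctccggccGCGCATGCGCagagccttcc
Atp5k (chromosome 5, 108434430 to 108434459, minus strand, 50 bases before): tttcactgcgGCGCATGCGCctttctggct
Cox6a1 (chromosome 5, 115349101 to 115349130, minus strand, 162 bases before): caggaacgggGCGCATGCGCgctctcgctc
Ndufa11 (chromosome 17, 56717692 to 56717721, plus strand, 60 bases before): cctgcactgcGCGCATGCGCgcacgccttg
Ndufaf4 (chromosome 4, 24897960 to 24897989, plus strand, 113 bases before): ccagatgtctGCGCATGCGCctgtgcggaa
Ndufaf5 (chromosome 2, 140170652 to 140170681, plus strand, 16 bases after): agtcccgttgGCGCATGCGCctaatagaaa
Uqcrc1 (chromosome 9, 108936668 to 108936697, plus strand, 30 bases after): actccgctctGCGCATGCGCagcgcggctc
A match is a string of letters and no measured binding. Ndufa3, Atp5e and Cox5b, the members without overlap between S40317 and S40327, are in the table without the palindrome, and Cox6a2 was not matched in it.

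**Figure D5:**
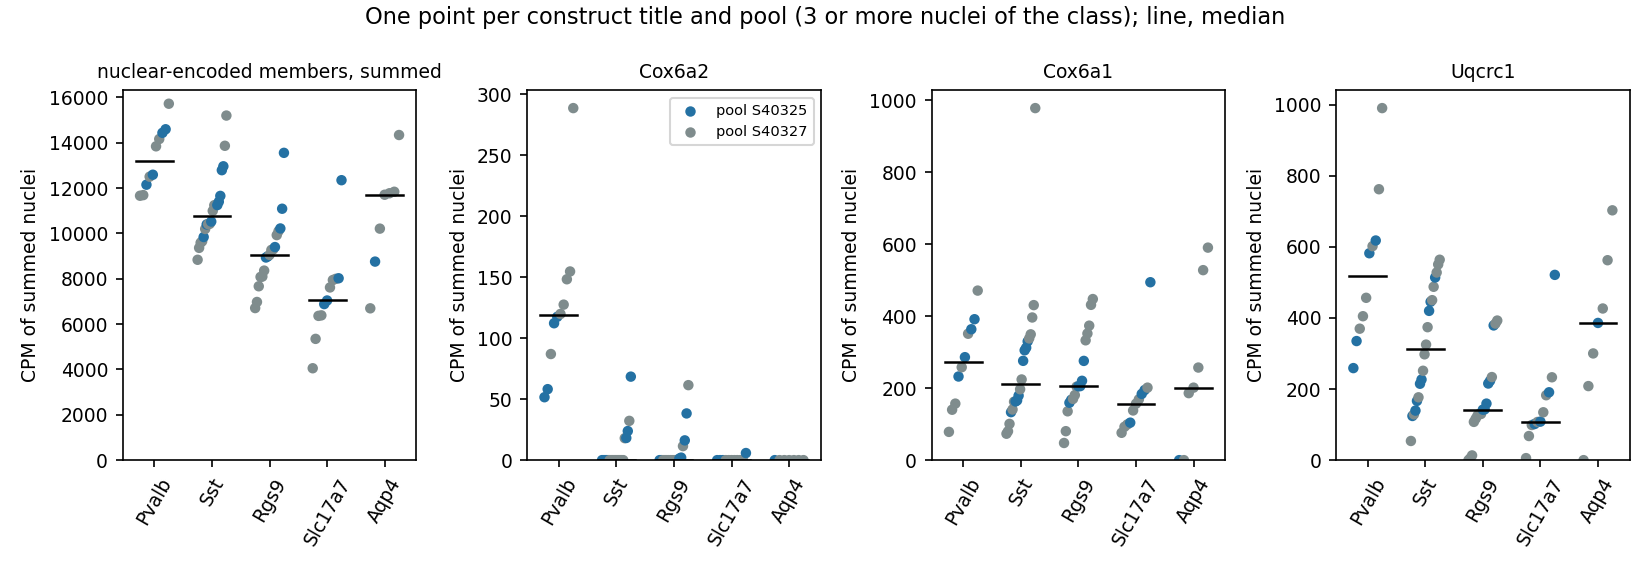
CPM of the 90 nuclear-encoded members summed, and of Cox6a2, Cox6a1 and Uqcrc1, in the 5 classes of pools S40325 and S40327, 1 point per construct title and pool with 3 or more nuclei of the class; the line is the median. Cox6a2 lies at 51.6 CPM or above in all 10 points of the Pvalb class (U7snRNAOPT-SYFP2-H2B-BC, with no Cox6a2 reads, has under 3 such nuclei in each pool and no point) and at 68.4 CPM or below in every point of the other classes, most of them at 0.

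In pools S40325 and S40327 the summed nuclear-encoded level was 13538 CPM ± 1422 (SD, n = 10 titles) in the Pvalb class, 10982 ± 1536 (n = 14) in the Sst class, 9071 ± 1361 (n = 14) in the Rgs9 class and 7405 ± 1912 (n = 11) in the Slc17a7 class, with 10777 ± 2459 (n = 7) in the Aqp4 class. The mean of the Pvalb class lay above that of the Sst class by more than the SD of either, with overlapping ranges (11662 to 15720 and 8974 to 15198 CPM). The Sst and Aqp4 classes, and the Aqp4 and Rgs9 classes, differed by less than the SD of the Aqp4 class, and the Rgs9 and Slc17a7 classes by less than the SD of the latter. The mitochondrially encoded level did not take that order: medians over the same titles were 151 CPM in the Pvalb class, 146 in the Sst class, 387 in the Rgs9 class, 55.9 in the Slc17a7 class and 798 in the Aqp4 class. Ribosomal protein genes had means of 2774, 3034, 2929, 3027 and 2427 CPM in the Pvalb, Sst, Rgs9, Slc17a7 and Aqp4 classes, so they did not share the order of the nuclear-encoded members either.

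The Sst class against the Slc17a7 class (10 sums a class) called no member (7539 genes tested, 1.68% called in either direction). DESeq2 called 3 nuclear-encoded members, 1 mitochondrially encoded member and 11.5% of all genes. Of 79 nuclear-encoded members 69 lay above 0, with a median of 0.66, against 50.9% and 0.02 for all genes. An unadjusted p under 0.05 in the higher direction was found for 4, against 3.87% of all genes. With sums per construct title and class instead, 42 of 82 lay above 0 with a median of 0.01. Ndufa4 (1.33, SE 0.51, adjusted p = 0.34), Atp5a1 (1.02, SE 0.40, adjusted p = 0.38) and Atp5b (0.72, SE 0.32, adjusted p = 0.50) had the smallest p-values in the higher direction, and Ndufaf3 (-3.07, SE 1.62), Atp5k (-1.10, SE 0.94) and Ndufs4 (-0.65, SE 0.65) in the lower. mt-Co1 had an estimate of 2.35 (SE 1.29), mt-Cytb 1.07 (SE 1.82) and mt-Nd4 -1.28 (SE 1.80).

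The Rgs9 class against the Slc17a7 class (7 sums a class, none from S40317) called no member (8365 genes tested, 1.41% called in either direction), and DESeq2 called 1 nuclear-encoded member and 8.48% of all genes. Here 58 of 81 nuclear-encoded members lay above 0 with a median of 0.27, against 57.4% and 0.24 for all genes, and 71.6% of the list. Under RLE scaling the medians were 0.11 and 0.06, and over the alternatives that of the list ran from -0.07 to 0.66. Ndufs1, the largest core subunit of complex I, had 133, 203 and 281 CPM against 1.86, 53.4 and 214 CPM (2.48, SE 0.87, adjusted p = 0.27) and was the only member with an unadjusted p under 0.05, which 4.93% of all genes had in the higher direction. Ndufaf8 (4.37, SE 2.33) and Cox6c (1.30, SE 0.71) followed, and Atp5s (-2.02, SE 1.79) and Atp5e (-2.05, SE 1.86) were among the 3 with the smallest p-values in the lower direction. Of the mitochondrially encoded members, mt-Nd1 had an estimate of 3.88 (SE 2.31), mt-Nd2 3.23 (SE 2.13), mt-Nd5 2.18 (SE 2.47), mt-Co1 1.95 (SE 1.52), mt-Cytb 1.15 (SE 1.2) and mt-Nd4 -2.06 (SE 1.69).

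In the Pvalb class against the Sst class (9 sums a class, 7426 genes tested, 0.202% called in either direction) no member passed. Cox6a2 had 51.6, 117 and 155 CPM against 0, 0 and 68.4 CPM and was higher in 9 of 9 pairs (7.50, SE 2.17, adjusted p = 0.31); over all reads the level was 91.9 against 8.42 CPM, a ratio of 10.9. The call was made in 3 of 17 alternatives, DESeq2 (adjusted p = 6.4e-08), nuclei of several classes kept (0.0497) and sums per construct title and class (0.013). Uqcrc1 (0.73, SE 0.36) and Atp5g3 (0.60, SE 0.31) came next, and Ndufs6 (-3.03, SE 2.27), Uqcrfs1, the Rieske iron-sulfur subunit of complex III (-1.55, SE 1.40), and Ndufa9 (-1.05, SE 1.01) lay lowest by p. Cox6a2 was the only member with an unadjusted p under 0.05, which 2.64% of all genes had in the higher direction. DESeq2 called it, 1 mitochondrially encoded member and 6.03% of all genes. Of 81 nuclear-encoded members 57 lay above 0, with a median of 0.29, against 54.6% and 0.14 for all genes. mt-Nd4 had an estimate of 4.01 (SE 3.36) and mt-Co1 one of -1.83 (SE 1.05).

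The Aqp4 class could be compared with the Slc17a7 class over 3 sums only, of 3 to 7 nuclei each, 1 of them from S40317. mt-Cytb and mt-Nd1 passed and were higher in the Aqp4 class (5482 genes tested, 1.75% called in either direction and 0.803% as higher). mt-Cytb had 4.65, 304 and 16264 CPM against 0, 0 and 1098 CPM (5.68, SE 1.37, adjusted p = 0.0053), and mt-Nd1 had 325, 414 and 8209 CPM against 0, 0 and 1079 CPM (7.70, SE 1.90, adjusted p = 0.0066); the highest value on both sides came from S40317. Both calls were lost with vector IDs in place of titles and with nuclei of several classes kept. mt-Nd4 (5.78, SE 1.99, adjusted p = 0.14), mt-Co1 (4.12, SE 2.0, adjusted p = 0.39) and mt-Nd5 (3.19, SE 3.85, adjusted p = 0.74) did not pass. An unadjusted p under 0.05 in the higher direction was found for 4 of the 5 mitochondrially encoded members tested and 0 of the 77 nuclear-encoded ones, against 2.08% of all genes. No nuclear-encoded member passed, while DESeq2 called 3 higher and 12 lower and 48.9% of all genes in either direction. Above 0 lay 43 of the 77 with a median of 0.33, while the median of all genes was -4.44 with 19.9% above 0. The groups did not overlap in the higher direction for 17 of the 77, against 5.8% of all genes, and in the lower direction for 4, against 30.2%. Atp5mpl (5.78, SE 3.31), Ndufb9 (3.25, SE 2.60) and Ndufb6 (6.90, SE 5.66) had the smallest p-values above 0. Uqcrc2, a core subunit of complex III, had no reads in the 3 sums of the Aqp4 class and 142 reads in those of the Slc17a7 class (45.1 CPM). The Aqp4 sums hold 9 nuclei, and reads of a nucleus are not independent counts, so no fold was read from them. Ndufaf7 had 0 to 1.16 against 50.5 to 329 CPM.

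Other genes of mitochondrial metabolism passed in few cases. In S40317 against S40327 none was called among 9 genes tested of complex II and cytochrome c (median 0.69), 15 of the TCA cycle (0.20), 18 of mitochondrial transcription and its regulators (-0.50), 14 of complex IV assembly (0.36), 9 carriers and porins (0.49) and 16 of glycolysis (0.20), with unadjusted p under 0.05 in the higher direction for 2, 1, 1, 1, 3 and 0. DESeq2 counts for these lists were not computed. In the Pvalb class against the Slc17a7 class the medians were 1.49, 0.58, 0.52, -0.53, 1.23 and 0.46 in the same order of lists, and 1 gene passed as higher, Slc25a3, the mitochondrial phosphate carrier (1.44, SE 0.29, adjusted p = 0.0027). In the Aqp4 class against the Slc17a7 class 1 passed as higher, the glycolysis gene Aldoc, known for its expression in astrocytes (adjusted p = 5.0e-06). In each of the 6 other comparisons 0 genes of these lists passed. The cytosolic ribosomal protein genes had 0 calls by edgeR in all 9 comparisons. Of the 11 nuclear long noncoding RNAs 2 were called lower in each of the Pvalb, Sst and Rgs9 classes and 5 in the Aqp4 class against the Slc17a7 class, and 1 lower in S40317 within the Slc17a7 class.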

How the data were processed

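The authors deposited 1 table of whole-number read counts per gene and nucleus, in which 904 columns belong to this series and were used and 1597 were not used. The submitters' processing notes name the aligner STAR 2.7.2a and the build mm10. The counting step is not given in the sources used here. CPM was computed from these deposited counts over all genes. Of 32285 gene IDs, 32235 matched GENCODE M21, which gave positions and lengths. Counts were summed per construct title and pool (5 or more nuclei) or per title, pool and class (3 or more), and tested with edgeR 4.0.16 (quasi-likelihood, TMM, filterByExpr, title or title and pool as block, Benjamini-Hochberg over all genes tested, threshold 0.05) in R 4.3.3; DESeq2 1.42.0 was an alternative. The tests were tested on simulated data with a fixed dispersion and no differences between titles. The real sums differ widely between titles, so that check does not vouch for the calls here. Figures and descriptions used Python 3.11.15. Doublets were not called; nuclei that met several class rules were left out (81), and 154 met none. Named in each comparison were all mitochondrially encoded members tested, members that passed, and the 3 with the smallest p in each direction; others were chosen after their values were seen, and some are not reported here. The members and lists were chosen with earlier results of these data known. Library totals of 30023 to 719419 reads limit low genes.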

Additional observations from a re-analysis of the deposited data

Results flagged for a closer look

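In 6 of 28 groups of 4 to 10 sums, the highest sum stood apart from the others by Dixon's criterion. Chance meets it in about 1 group in 20 where groups are independent and values normally distributed. Nuclei of the same titles recur across these groups, so the count of 6 cannot be set against that rate. SYFP2-H2B-3xBORG-BC of pool S40317 was the highest in 4 of them, all in the Sst class against the Slc17a7 class. Its summed mitochondrially encoded level was 11359 CPM in the Slc17a7 class (median of the 10 sums 122) and 17550 CPM in the Sst class (median 184). Its summed nuclear-encoded level was 25575 CPM in the Slc17a7 class (median 7493) and 38805 CPM in the Sst class (median 10473). It is the only sum of S40317 in that comparison. In pool S40327, SYFP2-H2B-3xsmOPT-BC had a mitochondrially encoded level of 1122 CPM (median of 10 titles 351) in the comparison with S40325. In the Sst class of the comparison with the Pvalb class, SYFP2-H2B-3xU7snRNAOPT-BC of S40327 had 3933 CPM (median of 9 sums 183).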

How the results depend on the processing

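Counts of calls, the members that passed, Cox6a2 in the Pvalb class against the Sst class, and Ndufa3, Atp5e and Cox5b were followed through the alternatives. None of these reversed. The other named genes were not followed singly. In S40317 against S40325, 4 of 7 mitochondrially encoded members lay above 0 in the main fit and 3 under DESeq2, so at least 1 changed sign. Medians over nuclear-encoded members crossed 0 in S40325 against S40327 (-0.07 to 0.18), the Rgs9 class (-0.07 to 0.66) and the Aqp4 class (-0.27 to 0.49). Those over mitochondrially encoded members did so in S40317 against S40325 (-3.79 to 3.79) and S40325 against S40327 (-0.39 to 1.02). They also did in the Pvalb (-1.79 to 0.47) and Sst (-2.37 to 2.02) classes against the Slc17a7 class, and in the Pvalb class against the Sst class (-1.93 to 2.05). DESeq2 called more members: in S40317 against S40327 32 nuclear-encoded and 5 mitochondrially encoded in place of 0, within the Slc17a7 class 4 nuclear-encoded, in S40317 against S40325 1, in the Pvalb, Sst, Rgs9 and Aqp4 classes against the Slc17a7 class 5, 3, 1 and 15, in the Pvalb class against the Sst class 1, and 1 mitochondrially encoded member in the Sst class against the Slc17a7 class and in the Pvalb class against the Sst class. Without a filter on low counts S40317 against S40327 called 7 and 1, and without the construct block 20 and 4; leaving out 1 title gave 0 to 6 and 0 to 0. Within the Slc17a7 class the 2 mitochondrially encoded calls became 1 under RLE scaling, 6 without a filter and 0 without the block, and leaving out 1 title gave 0 to 6, and 0 to 1 nuclear-encoded. The 2 nuclear-encoded calls of the Pvalb class against the Slc17a7 class became 1 with at least 2000 genes per nucleus, with nuclei of several classes kept and without pool S40317, and 1 to 3 without 1 title. In the Pvalb class against the Sst class, 1 was called with nuclei of several classes kept and with sums per construct title and class. The 2 mitochondrially encoded calls of the Aqp4 class became 0 with vector IDs and with nuclei of several classes kept. The correlation per nucleus, 0.48 over all kept nuclei, was 0.79 within the Slc17a7 class of S40317, -0.12, 0.0847 and 0.29 in the Pvalb, Sst and Rgs9 classes of S40325, and 0.23, 0.30, 0.0717, 0.0444 and 0.38 in the Pvalb, Sst, Rgs9, Slc17a7 and Aqp4 classes of S40327. Shares over all genes stand above for the main fits, for DESeq2, and for S40317 against S40327 without a filter or block. For the other alternatives none is given, so their counts are not read as particular to the members. The cause of these changes was not tested.

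RLE scaling moved the median of all genes from 0.24 to 0.06 in the Rgs9 class, from -4.44 to -4.30 in the Aqp4 class and from 0.74 to 0.56 within the Slc17a7 class. Vector IDs could not be used for S40317 against S40325 or within the Slc17a7 class, nor at least 2000 genes, sums per title and class, leaving out S40317 or leaving out titles for the Aqp4 class, because too few sums were left. The tests pair sums by construct title, or by title and pool, as a block. By replicate number, no paired analysis was possible because these numbers only count the nuclei of a construct.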
